A study of Mus musculus with 7 samples.

Results

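Hyaluronan is a long unbranched sugar polymer of the extracellular matrix. The set described here comprises 10 genes that make it, bind it or break it down, built around Stab2: the receptors Stab2, Stab1, Lyve1 and Cd44, the synthases Has1, Has2 and Has3, and the degradation genes Hyal1, Hyal2 and Cemip. Every non-control probe that the array files name after one of these genes was taken, which gave 20 probes of 56605, for 10 of the 37074 names in those files. The set was chosen because of the Stab2 difference between the genotypes in these same arrays, and the study itself singled out Cd44, so the genotype differences of the members are given below as descriptions, with no test.

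The samples were mammary glands of nulliparous FVB mice aged 20 to 25 weeks, taken at diestrus, with 1 abdominal gland per animal after the lymph nodes had been cut out. There were 3 wild-type mice and 4 PRA transgenic littermates, the latter labeled as carrying preneoplastic glands. PRA transgenics are bigenic, since GAL-4 under a cytomegalovirus promoter, which is not restricted to epithelium, switches on an added copy of the A form of the progesterone receptor placed behind GAL-4-binding sites. Gland RNA was labeled with Cy5 and hybridized to a 2-color array together with Universal Mouse Reference RNA in Cy3, a pool from mouse cell lines that does not change between arrays. Neither genotype received a treatment.

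Hyaluronan is extruded through the plasma membrane by the Has enzymes, which draw on sugar nucleotides of the cytosol. CD44 is its most widespread surface receptor, LYVE1 is its receptor on lymphatic endothelium and some macrophages, and stabilin-2, the product of Stab2, takes it up from lymph and blood in the sinusoidal endothelium of liver, spleen and lymph node. Hyaluronidases then cut the polymer at the cell surface and in lysosomes. In the mammary gland hyaluronan lies mainly in the stroma around ducts and between fat cells.

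The results on Stab2 turn on single 60-base probes, so the last 30 bases (bases 31 to 60, 5′ to 3′) are shown for the probes whose values differ most within the set. The pair of Stab2 probes that passed the filter on dim signals is given first, followed by the Has1 and Lyve1 probes.
Stab2 A_51_P402846: ccatacctcacccctctggttagtctgggg
Stab2 A_55_P1974028: tgttctgtattccagtacccagaagtacct
Has1 A_51_P492456: gaactcagatctaggtctctggggaggggt
Lyve1 A_52_P686785: tagctctcattcttttccagcaagaagaac
On the mm9 build and in the files' own annotation, the Stab2 probes lie at chr10:86304198-86304257 and chr10:86303982-86304041 on the minus strand, with 156 bases between them, and both are assigned to the transcript NM_138673. The Has1 probe lies at chr17:17980413-17980472 and the Lyve1 probe at chr7:117994171-117994230. Whether these stretches are coding sequence or UTR was not analysed here.

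All 7 arrays lay on 1 slide, with row 1 holding wild-type and row 2 PRA transgenics, and the effects of row and genotype cannot be told apart. Between 56.6% and 66.2% of probes were well above background in Cy5, with all 3 wild-type arrays above all 4 PRA transgenic arrays. The lowest Cy5 intensity that counted as well above background was 8.75 to 9.89 on wild-type and 12.1 to 15.9 on PRA transgenic arrays. Saturated spots were absent, and precision is limited by the number of arrays. A probe was kept for the comparison when every wild-type array, or every PRA transgenic array, read its Cy5 signal well above background, which left 34288 probes. Over these the median log2 difference between the genotypes was 0.02. The gland was recognizable on all arrays, where 8 of 8 luminal, 8 of 8 basal and 8 of 8 adipocyte markers were well above background.

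Of the 20 member probes 13 were kept, from 8 of the 10 genes. The single Has3 probe and both Cemip probes were not, nor were 3 of the 5 Stab2 probes and 1 of the 2 Has1 probes. Of the 13 kept, 9 were well above background in Cy5 on all 7 arrays, and 4 were dim on every PRA transgenic array. Their mean log2 ratio was lower in PRA transgenics for 10 probes and higher for 3, and for 2 of them, 1 for Stab2 and 1 for Has1, all 4 PRA transgenic arrays lay below all 3 wild-type arrays. Over all probes tested the genotypes did not overlap for 9.95%, and they did so with PRA transgenics lower for 4.53%. Because dim probes were kept through the genotype in which they were bright, and because the set was chosen on this contrast, nothing is read from the member counts.

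Stab2 was the member with the widest gap between the genotypes, in 1 of its 2 probes kept. With probe A_55_P1974028 the log2 ratio of gland to reference was 3.54, 1.64 and 1.95 in wild-type replicates 1 to 3 and -1.73, -2.96, -2.09 and -1.26 in PRA transgenic replicates 1 to 4. All wild-type arrays lay above 0 and all PRA transgenic arrays below it, although on 3 of the latter both gland and reference were dim, with a mean of 2.37 ± 1.02 (SD, n = 3) against -2.01 ± 0.72 (SD, n = 4). The log2 difference was -4.38 with a standard error of 0.55. In Cy5 alone the log2 intensity was 8.62, 6.66 and 6.89 in wild-type and 2.04, 1.64, 3.20 and 3.48 in PRA transgenics. The signal was well above background on all 3 wild-type arrays and on none of the 4 PRA transgenic arrays, so the difference has only a bound. With each dim array set to the lowest signal well above background of any probe on it, the PRA transgenic level was 10.8-fold lower. Without wild-type replicate 1 it was 7.11-fold lower. Some dim probes read above that lowest signal, so this bound is approximate and not a strict limit. In tissue RNA, fewer cells of a type and less of a transcript per cell cannot be told apart, here and for the genes that follow.

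The neighboring Stab2 probe gave a much smaller difference. With A_51_P402846 the log2 ratio was 1.31, 0.68 and 0.80 in wild-type and 0.90, 0.30, 0.83 and 0.22 in PRA transgenics, and the genotypes overlapped. The means were 0.93 ± 0.33 (SD, n = 3) and 0.56 ± 0.35 (SD, n = 4), a log2 difference of -0.37 with a standard error of 0.24. Without wild-type replicate 1, the highest array, the difference was -0.18. The reference for A_51_P402846 was well above background on 3 wild-type but only 2 PRA transgenic arrays, so some of these ratios rest on a dim reference. This probe was well above background in Cy5 on all 7 arrays, so that Stab2 signal was read in PRA transgenics by 1 probe and not by the other. In Cy5 alone its log2 intensity was 7.68, 6.53 and 6.62 in wild-type and 6.09, 5.73, 5.96 and 5.79 in PRA transgenics, without overlap. Scaled to the 75th percentile of each array, the Cy5 difference was -0.85, while the unscaled Cy3 reference, the same RNA throughout, differed by -0.69 for this probe and by a median of -0.22 over all probes. The reason for the gap between the probes was not tested.

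The other 3 Stab2 probes, placed by the files in the same gene on other transcripts, were at the limit of detection. A_55_P2026492 (chr10:86381487-86381546) was well above background in Cy5 on wild-type replicate 1, at a log2 intensity of 4.11, and on PRA transgenic replicates 2 and 4, at 4.16 and 4.81. The reference was well above background on the same PRA transgenic arrays, at 4.64 and 4.87, and on no other array. Its log2 ratio was 2.17, 0.28 and 0.90 in wild-type and -0.55, -0.49, -0.38 and -0.07 in PRA transgenics, which did not overlap, but on 4 of the 7 arrays both channels were dim. A_55_P2026487 (chr10:86455257-86455316) was above background on wild-type replicate 1 alone, at 4.10, and A_55_P2741015 (chr10:86346171-86346230) on no array. The ratios of these last probes overlapped between the genotypes. Their Cy5 values are shown with those of the probes kept in the plot of all Stab2 probes.

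**Figure D1:**
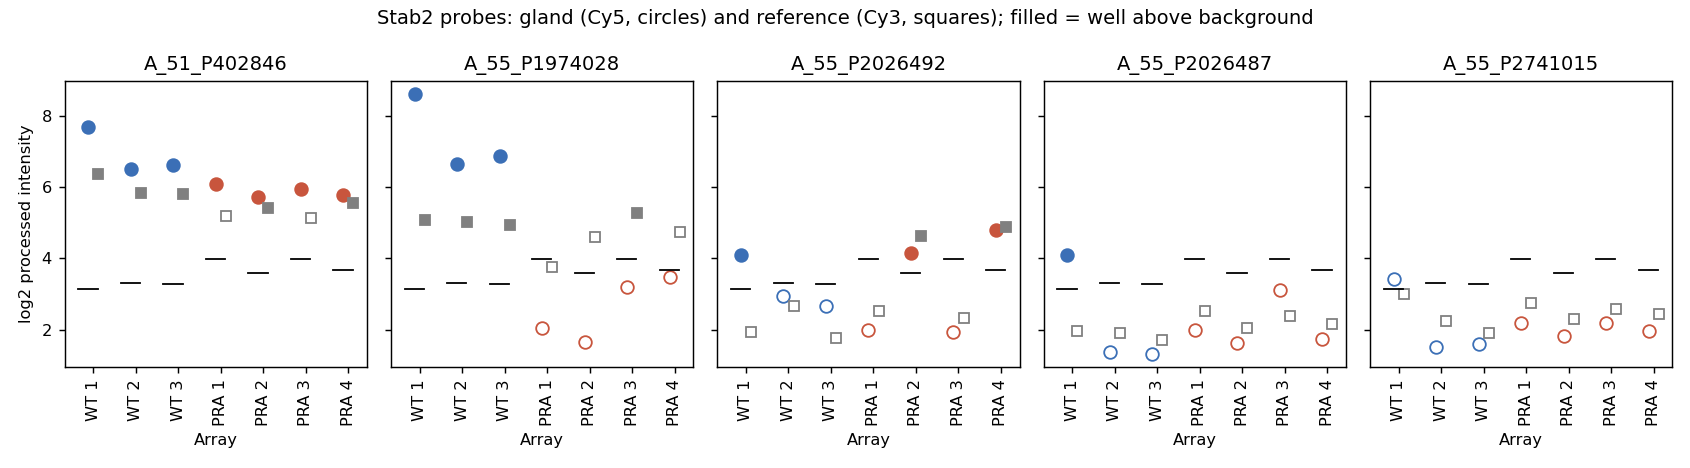
Log2 processed intensity of the 5 Stab2 probes on each array, with the gland (Cy5) as circles, blue for wild-type (WT) and red for PRA transgenics (PRA), the reference (Cy3) as squares, filled symbols for signals well above background, and a short bar at the lowest Cy5 signal well above background on that array. A_55_P1974028 reads 6.66 to 8.62 on wild-type arrays and 1.64 to 3.48, as open symbols, on PRA transgenic arrays, whereas A_51_P402846 stays filled on all 7.

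Leaving out each array in turn kept the sign of both Stab2 differences. For A_55_P1974028 the log2 difference ran from -4.75 to -3.80, and for A_51_P402846 it ran from -0.49 to -0.18. The genotypes did not overlap for A_55_P1974028 on all arrays. Its sign and separation were therefore fixed in advance, both here and within slide columns, and only the size of its difference is informative. Within slide columns 1, 2 and 4, each of which holds 1 array of each genotype, the difference was -5.27, -4.60 and -3.21 for the first probe and -0.41, -0.38 and -0.58 for the second. After normexp background correction with an offset of 50, followed by loess, the difference of A_55_P1974028 was -1.94.

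Stab1, a scavenger receptor of macrophages and sinusoidal endothelium related to Stab2, was slightly higher in PRA transgenics. Its single probe (A_51_P232371, chr14:31952288-31952347) gave log2 ratios of 3.26, 3.08 and 3.08 in wild-type and 3.20, 3.26, 3.41 and 3.53 in PRA transgenics. The genotypes overlapped, and the log2 difference was 0.22 with a standard error of 0.13, against -4.38 and -0.37 for the Stab2 probes. The sign held when single arrays were left out, from 0.16 to 0.27.

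Lyve1, the hyaluronan receptor used as a marker of lymphatic vessels, had a lower mean in PRA transgenics, with overlap. The log2 ratio was 7.65, 6.17 and 6.89 in wild-type and 4.83, 5.86, 5.47 and 6.55 in PRA transgenics, where only replicate 4 reached the wild-type range. The means were 6.90 ± 0.74 (SD, n = 3) and 5.68 ± 0.72 (SD, n = 4), a log2 difference of -1.23 with a standard error of 0.47. Cy5 was well above background on all arrays and Cy3 on none, and in Cy5 alone, scaled to the 75th percentile, the difference was -0.63. The difference in the log2 ratio, -1.23 on all arrays, was -0.85 without wild-type replicate 1. Within slide columns 1, 2 and 4 it was -2.82, -0.31 and -0.34, so the first column held most of it.

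Cd44, the broadly expressed receptor, was lower in the mean of all 3 of its probes. The brightest (A_55_P2912261, chr2:102652758-102652817) had log2 ratios of -2.09, -1.79 and -2.60 in wild-type and -2.95, -3.01, -2.83 and -2.53 in PRA transgenics. Only PRA transgenic replicate 4 lay within the wild-type range. The log2 difference was -0.67 with a standard error of 0.22, and leaving out single arrays gave -0.89 to -0.49. The other probes gave -0.38 (A_55_P2166501, standard error 0.22) and -0.64 (A_55_P2166488, standard error 0.34), both with overlap. All 4 PRA transgenic arrays read A_55_P2166488 as dim, and the approximate bound was a level 1.51-fold lower. The difference of that probe was -0.08 after normexp and loess. Within slide columns the brightest probe differed by -0.87, -1.22 and 0.07, the last in column 4.

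**Figure D2:**
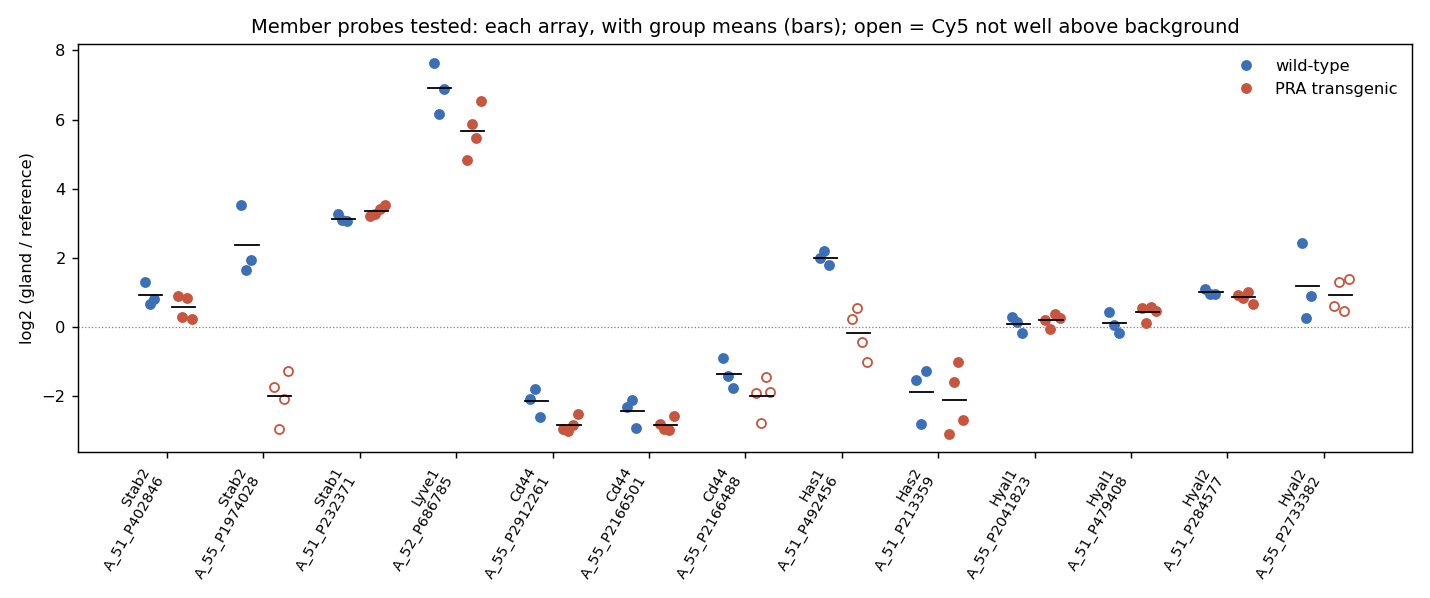
Log2 ratio of gland (Cy5) to reference (Cy3) for the 13 member probes kept, with 1 point per array, blue for wild-type and red for PRA transgenics, a bar at each genotype mean, and open points where Cy5 was not well above background. The genotypes part without overlap for Stab2 A_55_P1974028 and Has1 A_51_P492456, and for both all 4 PRA transgenic points are open.

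Among the synthases, Has1 gave the other pair of groups that did not overlap. With probe A_51_P492456 the log2 ratio was 1.98, 2.20 and 1.81 in wild-type and 0.22, 0.55, -0.44 and -1.02 in PRA transgenics. The log2 difference was -2.17 with a standard error of 0.37, and leaving out single arrays gave -2.41 to -1.88. The gland signal itself was weak. Its log2 Cy5 intensity was 4.23, 5.23 and 4.08 in wild-type, above background on all 3 arrays, and 3.67, 2.93, 2.15 and 3.88 in PRA transgenics, above background on none. The approximate bound was therefore only 1.46-fold lower. The reference was dim on all arrays and 0.81 higher on the log2 scale in the PRA transgenic arrays. The difference was -1.15 in scaled Cy5 alone and -0.30 after normexp and loess.

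The second Has1 probe behaved differently. A_52_P440436 (chr17:17984273-17984332), assigned to another transcript, had a log2 Cy5 intensity of 1.37 to 1.53 in wild-type and of 6.18, 1.81, 3.75 and 5.97 in PRA transgenics. On PRA transgenic replicates 1 and 4 both gland and reference were well above background, with the reference at 5.80 and 5.79 against 1.87 to 2.10 on the wild-type arrays. The log2 ratio on those arrays was 0.38 and 0.17.

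Has2, the synthase of most embryonic and stromal hyaluronan, varied as much within as between the genotypes. Its log2 ratio was -1.52, -2.82 and -1.27 in wild-type and -3.09, -1.60, -1.02 and -2.70 in PRA transgenics, a log2 difference of -0.23 with a standard error of 0.59. The sign turned to 0.10 without PRA transgenic replicate 1. Has3 (A_51_P398868, chr8:109406334-109406393) was not well above background in either channel on any array, with a log2 Cy5 intensity of 1.26 to 3.03.

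The hyaluronidases showed small differences. Hyal1, the lysosomal enzyme, had log2 differences of 0.12 (A_55_P2041823, standard error 0.17) and 0.31 (A_51_P479408, standard error 0.19), and the first turned to -0.01 without wild-type replicate 3. For Hyal2, which is anchored at the cell surface, the brightest probe (A_51_P284577) had log2 ratios of 1.10, 0.96 and 0.96 in wild-type and 0.94, 0.84, 1.00 and 0.67 in PRA transgenics. Its log2 difference was -0.14 with a standard error of 0.13. The dimmer Hyal2 probe (A_55_P2733382) was dim in the gland of all 4 PRA transgenics. Its log2 difference was -0.25 with a standard error of 0.51 and turned to 0.36 without wild-type replicate 1. Its approximate bound was 1.29-fold lower.

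Cemip, which codes for a hyaluronan-binding protein needed to break the polymer into fragments, was at the limit of detection in the gland. Probe A_55_P2069659 (chr7:91083302-91083361) was well above background in Cy5 on PRA transgenic replicates 2 and 3, at log2 intensities of 6.26 and 4.15, where the reference read 6.77 and 4.61. On the other arrays its Cy5 value lay between 1.75 and 2.26. Probe A_51_P456113 (chr7:91081810-91081869) was dim in the gland on every array, whereas the reference was well above background on 6 of 7. The log2 ratio of that probe was -4.62 to -3.05 in wild-type and -3.84 to -2.91 in PRA transgenics.

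**Figure D3:**
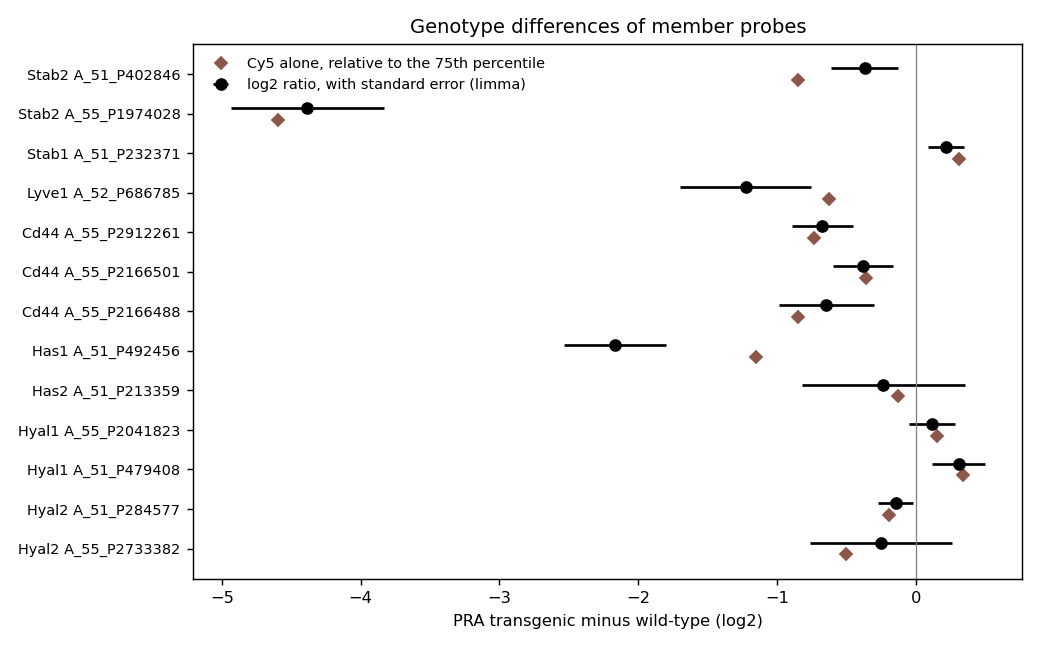
Log2 difference between PRA transgenics and wild-type for each member probe kept, in the ratio of gland to reference (black points with the standard error from limma) and in Cy5 alone relative to the 75th percentile of each array (brown diamonds). Both measures put Stab2 A_55_P1974028 beyond -4, while Has1 moves from -2.17 to -1.15 and Lyve1 from -1.23 to -0.63 when the reference is left out.

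A contrast that did not enter the choice of the set is that of the gland with the reference. The mean of the genotype means was tested against 0 with limma for the brightest probe kept of a member, and is given for the 7 members whose probe was well above background in Cy5 on all 7 arrays. Of these 6 differed at an adjusted p under 0.05, 4 higher and 2 lower in the gland. Over all probes tested 38.7% were higher and 36.6% lower, so such a call is common. Those probes were not required to be well above background in Cy5 on all 7 arrays, so the shares are not on the same filter. No dyes were swapped, so dye and RNA cannot be told apart, and the p-values measure the spread over 7 glands against 1 pool.

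Receptors lay on both sides. The log2 ratio was 6.29 for Lyve1 (standard error 0.24, adjusted p = 5.26e-07 from limma), with the reference dim on all arrays. The approximate bound was 16.0-fold higher in the gland. For Stab1 it was 3.25 (standard error 0.065, adjusted p = 3.05e-08 from limma) and for Stab2 A_51_P402846 it was 0.75 (standard error 0.12, adjusted p = 0.000862 from limma), both above 0 on 7 of 7 arrays. The reference for this Stab2 probe was well above background on only 5 arrays. Cd44 was lower in the gland than in the cell line pool on all 7 arrays, at -2.49 (standard error 0.11, adjusted p = 1.12e-06 from limma).

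Of the enzymes, Has2 was lower in the gland on all 7 arrays, at -1.99 (standard error 0.29, adjusted p = 0.000546 from limma). Hyal2 was higher on all 7, at 0.93 (standard error 0.063, adjusted p = 8.88e-06 from limma). Hyal1, at 0.14, missed the threshold (standard error 0.083, adjusted p = 0.164 from limma; above 0 on 5 of 7 arrays), and after normexp and loess it passed at 0.27 (adjusted p = 0.006). For Has1, dim in the reference throughout and in the gland of all PRA transgenics, no comparison with the reference is given.

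The genes around the members were taken from a list of 40 that supply the sugar nucleotides, cut hyaluronan, bind it or link its receptors to the cytoskeleton. All 40 had a probe and 30 were tested by the brightest probe kept. In limma, with adjustment over all probes tested, 0 of 30 reached an adjusted p under 0.05 (the lowest was 0.351), against 0.0117% of all probes, and the methods' t-test gave 0 as well. At an unadjusted p under 0.05 there were 3, against 9.02% of all probes. With a change of at least 1.5-fold besides, 2 were higher and 0 lower in PRA transgenics, against 1.94% and 2.59% of all probes, and the methods' t-test also gave 2. The mean was lower for 17 genes and higher for 13, with a median log2 difference of -0.08 against 0.02 over all probes tested.

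The highest differences in the list were those of Tnfaip6 and Tlr4. Tnfaip6, whose product moves the heavy chains of inter-alpha-inhibitor onto hyaluronan, had log2 ratios of 0.81, 0.75 and 0.42 in wild-type and 1.42, 1.53, 1.65 and 2.32 in PRA transgenics, without overlap. Its log2 difference was 1.07 (standard error 0.24, unadjusted p = 0.00264, adjusted p = 0.351 from limma), and it lay between 0.74 and 1.17 in the alternatives run. Tlr4, an innate immune receptor reported to respond to hyaluronan fragments, gave 0.44, 0.10 and -0.41 in wild-type and 0.92, 0.54, 0.76 and 1.26 in PRA transgenics. Its log2 difference was 0.83 (standard error 0.25, adjusted p = 0.425 from limma), and its other probes gave 0.76 and 0.23. Tlr4 is on a list the study drew from these arrays and is not independent of it. For both genes, gland and reference were well above background throughout.

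Cemip2, a transmembrane hyaluronidase, also did not overlap between the genotypes. Its brightest probe gave 0.71, 0.11 and 0.55 in wild-type and 0.89, 1.10, 0.96 and 0.87 in PRA transgenics, a log2 difference of 0.50 (standard error 0.17, adjusted p = 0.463 from limma). The other 3 Cemip2 probes kept gave -0.10, 0.91 and -0.05, so that its probes did not point one way. Itih5, a heavy chain of the inter-alpha-inhibitor family, had a difference of 0.34.

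The lower means did not reach either limit. Gnpnat1, an enzyme of the route to UDP-N-acetylglucosamine, had a difference of -0.27 (adjusted p = 0.595 from limma), without overlap. Itih3, another heavy chain, had -0.99 (standard error 0.60) and Ezr, which ties CD44 to actin, -0.56 (standard error 0.44).

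Ugdh, which makes UDP-glucuronate, differed by -0.22, the intracellular hyaluronan binder Hmmr by 0.14 and the receptor Layn by 0.09. The proteoglycan Vcan differed by -0.29, and its other probes gave 0.24 and 0.23. None of Hyal3, Hyal4, Hyal5, Spam1, Habp2, Ambp, Acan, Bcan, Hapln1 and Hapln2 had a probe that passed the filter on dim signals.

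**Figure D4:**
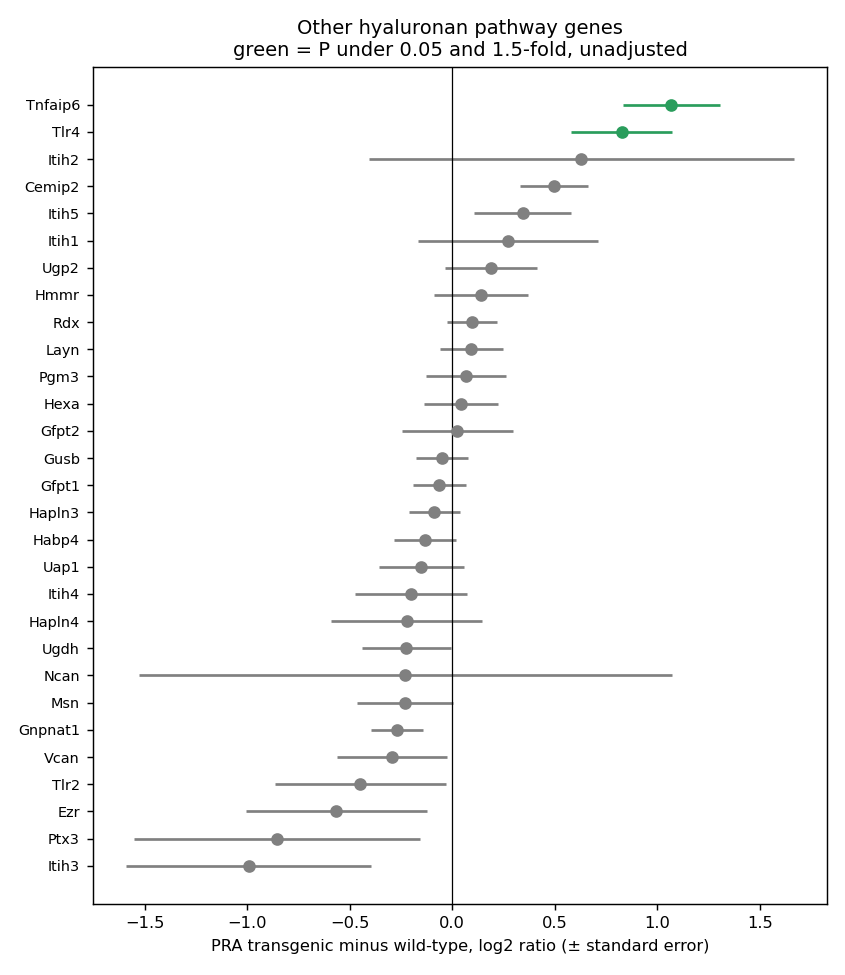
Log2 difference between PRA transgenics and wild-type with its standard error (limma) for the brightest probe kept of 29 of the 30 hyaluronan pathway genes tested outside the set, with green for the 2 genes at an unadjusted P under 0.05 and 1.5-fold. Tnfaip6 at 1.07 and Tlr4 at 0.83 lie above 0, none passes an adjusted p under 0.05, and the remaining genes spread to both sides.

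Markers of the cells that carry these receptors were read beside them, as the mean log2 ratio of 8 genes per list. The lymphatic endothelium list was 2.46, 1.95 and 2.14 in wild-type and 1.03, 1.44, 1.59 and 1.58 in PRA transgenics, without overlap, and 7 or 8 of its 8 genes were well above background in wild-type against 6 or 7 in PRA transgenics. Like the dim Stab2 probe it was lower on all 4 PRA transgenic arrays, with a difference of -0.77. Prox1, the transcription factor that defines lymphatic endothelium, had log2 ratios of 3.61, 2.30 and 3.22 in wild-type and 0.94, 2.31, 1.08 and 1.41 in PRA transgenics, where it was above background in Cy5 on 1 of 4 arrays, and its reference was dim throughout. Flt4, the receptor for VEGF-C, had 1.39, 1.51 and 0.90 against -0.59, -0.49, -0.42 and -0.50, but was above background in Cy5 on 2 wild-type arrays only. Pdpn and Ccl21a differed by -0.30 and -0.21. The list mean rests largely on Prox1 (-1.60), Flt4 (-1.77) and Mmrn1 (-1.63), each with the reference dim on every array. Reln, Sema3d and Nr2f2 differed by -0.49, -0.15 and -0.03, with overlap. The part of lymphatic endothelium in the Stab2 and Lyve1 differences was not tested.

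The sinusoidal endothelium list stands for the cells best known for Stab2. It was 2.43, 1.77 and 2.07 in wild-type and 1.71, 2.18, 1.81 and 2.06 in PRA transgenics, with overlap and a difference of -0.15, and Oit3 was dim on all arrays. In unscaled Cy5 the list differed by -0.42, and its genes went both ways, from -0.64 for F8 to 0.47 for Mrc1 in the log2 ratio. The macrophage list ran from 2.96 to 3.17 in wild-type and from 2.98 to 3.55 in PRA transgenics. It overlapped between the genotypes and differed by 0.13. Its genes went both ways, with Csf1r at -0.15 and Mrc1, which is on this list too, at 0.47.

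Lymphocyte markers set wild-type replicate 1 apart. The B cell list was 1.95 there and -0.83 to -0.33 on the other 6 arrays. The T cell list was 2.91, 0.46 and 0.84 in wild-type and 0.09, 0.36, -0.01 and 0.38 in PRA transgenics, so that it too did not overlap between the genotypes, with wild-type replicate 1 the highest. The same array had the highest Stab2, Lyve1 and lymphatic endothelium values, and it is the array whose removal lowered the Stab2 bound from 10.8-fold to 7.11-fold. Cd79a of B cells differed by -0.51, Cd3e of T cells by -0.16 and Il7r by -2.19 between the genotypes. The Cd79a probe did not pass the filter, with Cy5 well above background on 2 wild-type arrays and 1 PRA transgenic array. Its wild-type log2 ratios were 1.62, 0.31 and 0.25. Il7r is on lists the study drew from these arrays and is not independent of them. It is also a gene of the T cell list, so the lack of overlap of that list is not independent of them either. The list mean without Il7r is not given. The lymph node stroma list was 3.54, 1.88 and 3.33 in wild-type and 1.82, 3.51, 2.26 and 2.02 in PRA transgenics, with overlap. The part of lymphocytes or lymph node tissue in the Stab2 and Lyve1 values was not tested.

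**Figure D5:**
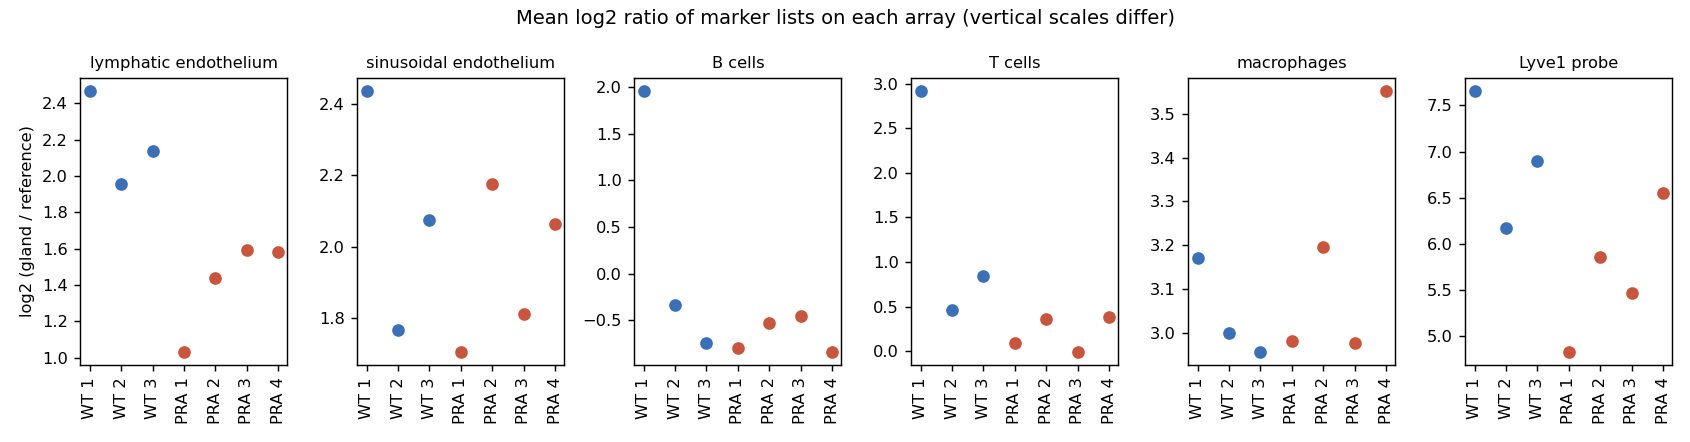
Mean log2 ratio of gland to reference over 5 marker lists of 8 genes, and the log2 ratio of the Lyve1 probe, with 1 point per array, blue for wild-type (WT) and red for PRA transgenics (PRA), and a vertical scale that differs between panels. Wild-type replicate 1 stands apart in B cells (1.95) and T cells (2.91), and the lymphatic endothelium list lies at 1.95 to 2.46 in wild-type and 1.03 to 1.59 in PRA transgenics.

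The probes whose log2 ratio over the 7 arrays was most like that of Stab2 A_51_P402846, the brightest Stab2 probe, were those of Zfp229, Fubp1, Ube2d2a, Dcst2, Atp1b3, Gsr, Mtdh, Cebpz, Kif2a and Podxl. Their Pearson r lay between 0.949 and 0.983, as the highest among all probes with a gene symbol. No member of the set and no marker of the lists above was among them. The nearest member probe was Hyal2 A_51_P284577, with an r of 0.919, and the other Stab2 probe kept had 0.636.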

How the data were processed

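The intensity values deposited by the authors, 1 file per array, were made with Agilent Feature Extraction 12.0 per the submitters' processing notes. Per the file headers, background had been subtracted, dyes normalized within each array and dim signals replaced by surrogate values. The log2 ratios in the authors' series table were, for 56526 probes, the scanner log2 ratios centered per probe on their median (100% within 0.01). The table was used as an alternative. Columns without a sample numbered 0.

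The log2 ratio of processed Cy5 to Cy3 was averaged over the spots of a probe, with control spots and flagged outliers removed. Linear models were fitted in limma 3.58.1 (R 4.3.3) with moderated variances, and p-values were adjusted by Benjamini-Hochberg over the probes kept. The step was tested on simulated data. The brightest kept probe in Cy5 stood for a gene outside the members. Bounds are approximate and used channels scaled by quantiles of the reference. A dim signal was replaced by the lowest signal well above background on its array where that was higher. Members were matched by the files' gene names, and the other genes were named by accession (32989 probes), symbol (10228) or older symbol (519) in a RefSeq table of GRCm38.p6, used for names only, or as in the files (12869). Positions are those of the files.

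The members, pathway genes and marker lists were chosen with earlier results of these data known. Named are all members, the pathway genes called under either limit or with the 8 lowest P, Ugdh, Cemip2, Hmmr, Tnfaip6, Vcan, Layn and Tlr4, 9 fixed markers and the 10 genes most like Stab2. The remaining lymphatic endothelium markers are named besides. Some genes that this rule takes are not reported here. Blood endothelium, fibroblast, adipocyte, skeletal muscle and epithelial lists were read as well. Alternatives were normexp with offset 50 and loess, the series table, no filter or both channels above background, quantile normalization, Cy5 alone, an intensity trend, the methods' t-test, any kept probe of a gene, a replicate block, a slide column block and each array left out.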

Additional observations from a re-analysis of the deposited data

Results flagged for a closer look

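In 55 groups of 4 PRA transgenic arrays examined, 6 had an array whose gap to its nearest neighbor was large against the whole range by the critical value of Dixon's test, and chance flags about 1 in 20, or 2.75 here. None was a member of the set. For Itih5 (gap over range 0.866) replicate 3 had a log2 ratio of 8.64, against 7.76 to 7.88 on the other 3. For Ezr (0.893) replicate 2 had -0.09, against -0.79 to -0.71. For Hexa (0.870), a subunit of a lysosomal hexosaminidase, replicate 4 had 0.85, against 0.27 to 0.35. For Ncan (0.903), a proteoglycan that binds hyaluronan, replicate 4 had -0.39, against 3.91 to 4.37. The fibroblast list (0.931) was 2.65 in replicate 4 and 2.19 to 2.22 in the others. The skeletal muscle list (0.912) was 3.87 in replicate 4 and -0.89 to -0.47 in the others, and in wild-type it was 2.85, -0.91 and 3.66.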

How the results depend on the processing

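The sign of both Stab2 differences held in every alternative that kept the probes. The bound on A_55_P1974028 was 10.8-fold, somewhat higher without scaling between arrays, and 7.11-fold to 14.6-fold with each array left out, lowest without wild-type replicate 1. Of the 13 member probes, the 2 without overlap became 5 in Cy5 alone, 0 with both channels required, since those probes are then dropped, and 3 to 5 with each array left out. With fewer arrays any probe separates more easily. The shares over all probes in these settings are not given, so nothing is read from these counts. The members that differed from the reference went from 7, with Has1 counted, to 4 with both channels required. Pathway genes at an adjusted p under 0.05 numbered 0 in every alternative, and those at P under 0.05 and 1.5-fold numbered 2 to 3 apart from the replicate block, which gave 4. Over all probes, the 4 at an adjusted p under 0.05 became 15 with no filter, 1 by the methods' t-test, 0 with the replicate block, 0 with the slide column block and 1 to 12 with each array left out. The 1552 at P under 0.05 and 1.5-fold became 328 after normexp and loess, 3367 with no filter, 468 with both channels required, 996 by the methods' t-test, 2444 with the replicate block and 1382 to 2334 with each array left out, highest without PRA transgenic replicate 4. The slide column block was chosen after seeing the data. Replicate numbers did not pair the arrays, since the deviations of same-numbered arrays correlated at 0.0997, -0.297 and 0.0362, and only 1 of 3 wild-type arrays matched its own number best. The cause of these changes was not tested. The 4 member probes that were dim in PRA transgenics have only approximate bounds.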

Other observations

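The probes most like the dim Stab2 probe A_55_P1974028 over the 7 arrays were sought after the data had been seen. Among the 10 most like it were those of Tcf12, Tpt1, Dhps, Ybx1, Cnn3, Rab2a, Pdia4, Tmem125 and Cnot10, with a Pearson r of 0.971 to 0.987, and none of those named was among the 10 genes most like A_51_P402846. Mmrn1 of the lymphatic endothelium list, picked after its values were seen, had log2 ratios of 5.19, 4.25 and 3.65 in wild-type and 2.49, 1.83, 3.65 and 2.97 in PRA transgenics. The log2 difference was -1.63, with the reference dim on all arrays. In unscaled Cy5 it was -1.27, with overlap. The blood endothelium list was 4.82 to 4.84 in wild-type and 4.63 to 5.29 in PRA transgenics, with overlap. The adipocyte list was 5.49 to 5.83 in wild-type and 5.61 to 6.24 in PRA transgenics. The luminal list was 2.97 to 3.59 and 2.91 to 3.43 and the basal list 2.31 to 2.74 and 2.56 to 2.71, in the same order, and both overlapped.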
